A study of Homo sapiens with 27 samples.

Results

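Gene expression after exposure to dibenzo[a,h]anthracene (DBA) was taken from the 3 arrays labelled with this compound, of 27 in the series. On each array the Cy5 dye marked RNA of DBA-treated HepG2 cells, and the Cy3 dye marked RNA of cells that had received the solvent DMSO. HepG2 is an established line from a human hepatocellular carcinoma that keeps many functions of hepatocytes. The series applied 9 polycyclic aromatic hydrocarbons for 48 h, with 3 arrays of 2 colours per compound on 44K Agilent arrays of human genes. The groups used here were DBA, 3-methylcholanthrene (3MC) and naphthalene (NP), each against DMSO. Doses are not given, so compounds were set side by side as they were applied. No array had the dyes swapped, and a gene's ratio therefore includes its own dye bias, if any. The labels do not say whether the 3 arrays came from separate cultures or shared 1 DMSO extract. P-values and intervals rest on the spread within compounds over 24 arrays of 8 compounds, not on the 3 DBA arrays alone. That spread could be technical.

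DBA is a polycyclic aromatic hydrocarbon formed when organic matter burns incompletely. Such compounds bind the aryl hydrocarbon receptor (AHR), a transcription factor that pairs with ARNT and switches on enzymes of the CYP1 family, in liver cells among others. These enzymes oxidise the compounds, and some of the products bind DNA, a form of damage that activates the tumour suppressor p53. In normal cells p53 acts on the cell cycle through CDKN1A, and HepG2 cells are known to carry a working p53.

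The promoters of 4 genes are shown because their gene lists moved far with DBA or because the gene had the highest ratio. Each is the 250 bases before the RefSeq gene start (GRCh38.p14), 5′ to 3′ on the gene's strand. Capitals mark the core of the metal response element (TGCACNC or TGCGCNC) in the metallothionein genes MT2A (chr16:56608334-56608583, + strand) and MT1X (chr16:56682220-56682469, + strand). They mark the cell cycle homology region (TTTGAA) in HMMR (chr5:163460382-163460631, + strand), a mitotic spindle gene, and the core of the xenobiotic response element (GCGTG) in CYP1A1 (chr15:74725529-74725778, - strand).
MT2A: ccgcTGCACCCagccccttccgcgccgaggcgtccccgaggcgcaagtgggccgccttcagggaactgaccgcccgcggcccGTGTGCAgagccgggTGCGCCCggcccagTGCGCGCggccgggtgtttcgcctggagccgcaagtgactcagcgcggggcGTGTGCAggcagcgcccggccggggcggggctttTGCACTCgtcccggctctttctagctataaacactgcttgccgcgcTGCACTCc
MT1X: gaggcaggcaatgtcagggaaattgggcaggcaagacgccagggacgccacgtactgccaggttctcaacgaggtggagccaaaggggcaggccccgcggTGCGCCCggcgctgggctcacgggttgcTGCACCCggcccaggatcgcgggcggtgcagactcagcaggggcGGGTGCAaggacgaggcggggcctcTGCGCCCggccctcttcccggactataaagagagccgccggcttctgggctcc
HMMR: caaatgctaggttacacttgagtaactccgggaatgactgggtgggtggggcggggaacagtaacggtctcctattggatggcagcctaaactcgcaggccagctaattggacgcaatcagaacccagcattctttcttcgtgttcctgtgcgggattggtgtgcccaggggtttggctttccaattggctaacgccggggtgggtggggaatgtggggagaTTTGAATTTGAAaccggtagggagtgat
CYP1A1: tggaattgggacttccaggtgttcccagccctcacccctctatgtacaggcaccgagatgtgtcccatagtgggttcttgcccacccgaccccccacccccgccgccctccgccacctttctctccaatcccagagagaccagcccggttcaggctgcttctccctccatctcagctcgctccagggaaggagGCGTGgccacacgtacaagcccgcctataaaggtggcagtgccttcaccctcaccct

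Both strands were searched, and a match is a run of letters, not a shown binding site. MT2A held 7 metal response cores and MT1X held 4. All 5 genes of the metallothionein list with a promoter in the table held at least 1, against 24.7% of all 27303 promoters and 30.2% of those of 13694 tested genes. TTTGAA stood in 11 of 24 promoters of G2 and mitosis genes (45.8%), against 13.6% of all promoters and 10.2% of those of tested genes. In HMMR a pair of adjoining copies lay from 28 to 17 bases before the gene start. Of the 24 promoters, 20 belonged to genes that fell with DBA and only 4 to genes that did not pass. All 11 with TTTGAA were among the 20, where most would lie in any case. Over all genes that fell, TTTGAA stood in 12.3% of promoters. Among mitotic kinesins it stood in 3 of 6 that fell and 2 of 7 that did not pass. DNA replication genes held TTTGAA in 1 of 27 promoters (3.7%). CYP1A1 held GCGTG 57 to 53 bases before its start, a core that 40.5% of tested genes also held.

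Signals on the DBA arrays were dim. The median spot signal, with background not subtracted, was 70 to 84 intensity units in Cy5 and 68 to 86 in Cy3. Signals of single genes are given with background subtracted but before normalisation, so the dyes need not share a scale. In Cy5 68.5% to 74.6% of spots stood over 2 background SDs above background. No spot was saturated. Of 41675 spots per DBA array, 22457 to 24625 were marked not found, against 11284 to 14333 on the 3MC and NP arrays, and these were kept. Of 17302 tested genes, 13767 stood over this limit in at least 1 channel on all 3 arrays, called well above background here. Log2 ratios of DBA over DMSO correlated at 0.98 between arrays across these genes, which are not independent replicates. All 13 HepG2 and hepatocyte markers were well above background, with mean DMSO signals of 26.3 to 5733 and a median of 3627. The 9 markers that HepG2 should lack had 4.67 to 169 in DMSO, with a median of 29, and up to 294 with DBA. On an array they summed to 473 to 790 units in DMSO and 721 to 998 with DBA. Of these 9, 5 were well above background, and PTPRC, COL1A1, COL1A2 and PECAM1 were not. By limma 0 of 9 passed (2 were higher at an unadjusted p under 0.05).

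With DBA, 533 of 17302 genes rose (3.08%) and 1254 fell (7.25%), 10.3% in either direction. The counts of gene lists below are to be read against these shares. The words rose and fell are used for genes with a Benjamini-Hochberg adjusted p under 0.05 in limma and a change of at least 1.5-fold. Of the risers 133 changed at least 2-fold and 7 at least 4-fold, and of the fallers 327 and 10. Among genes well above background 531 rose (3.86%) and 1248 fell (9.07%). Each of these 1779 had the same sign on all 3 arrays, which the call itself makes likely. Of genes in the brightest 5th of signals 224 rose and 418 fell, against 11 and 17 in the dimmest. The balance of the directions depended on the normalisation: 1612 genes were higher and 646 lower when each array was centred on its median in place of loess. Loess held the median log2 ratio between -0.03 and 0.02 in every 5th of brightness. Median centring left it at 0.0034 in the dimmest and 0.44 in the brightest. Counts of lists against DMSO are therefore given with both where they differ. A call against DMSO named here that median centring ends is given with its centred value.

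**Figure D1:**
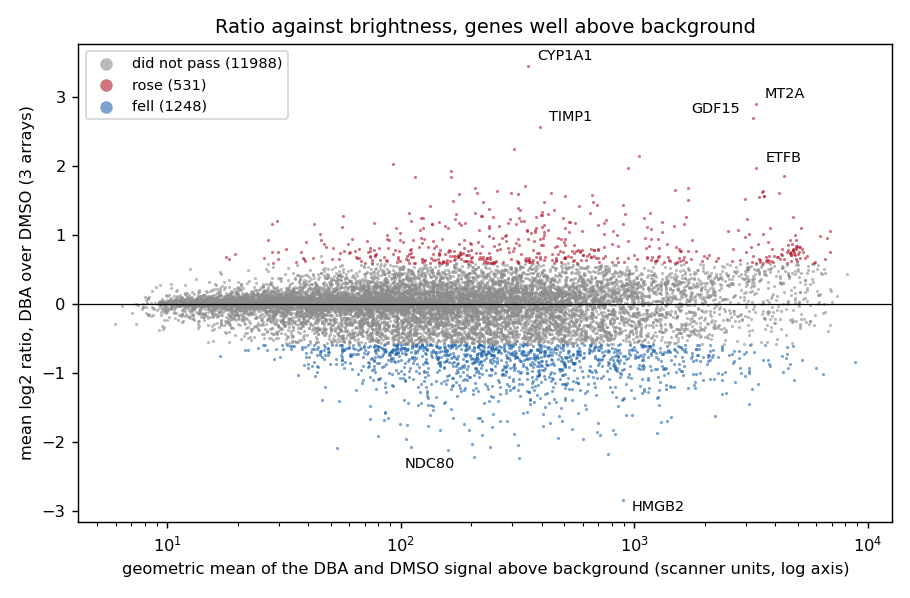
Mean log2 ratio of DBA over DMSO on 3 arrays (vertical axis) against the geometric mean of both signals above background in scanner units (horizontal log axis), 1 point per gene well above background. The 531 genes that rose are red, the 1248 that fell are blue, and CYP1A1 lies highest and HMGB2 lowest.

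The highest ratio belonged to CYP1A1, a cytochrome P450 that oxidises these hydrocarbons and is the classic AHR target. Its signal with DBA was 1758, 1571 and 1576 units on the 3 arrays, against 64, 84 and 78 with DMSO. A gap between the channels follows from its place as the highest ratio. The log2 ratios were 3.72, 3.36 and 3.26, with a mean of 3.45 ± 0.24 (SD, n = 3; 95% interval 2.19 to 4.70; adjusted p 5.82e-05). The metallothionein MT2A, which binds zinc and copper, had log2 ratios of 3.19, 2.87 and 2.63. The stress cytokine GDF15 had 3.14, 2.57 and 2.35, and TIMP1, an inhibitor of matrix metalloproteinases, 2.73, 2.50 and 2.46. All 4 of these genes were highest on array 1 and far from 0 on every array. RGS10, which speeds the turn-off of G proteins, had a mean of 2.24 ± 0.40 and was lowest on array 2, at 1.80. The p53 target TP53I3 rose by 2.14 ± 0.22, LRRC25 by 2.02 ± 0.14, ETFB, a subunit of the electron transfer flavoprotein of mitochondria, by 1.97 ± 0.22 and the linker histone H1-2 by 1.97 ± 0.16. The water and glycerol channel AQP3 at 1.92 ± 0.23, the metallothionein MT1A at 1.86 ± 0.23 and the lipocalin LCN15 at 1.84 ± 0.15 completed the 12 highest. Adjusted p was 2.38e-07 or lower for the 11 genes after CYP1A1.

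**Figure D2:**
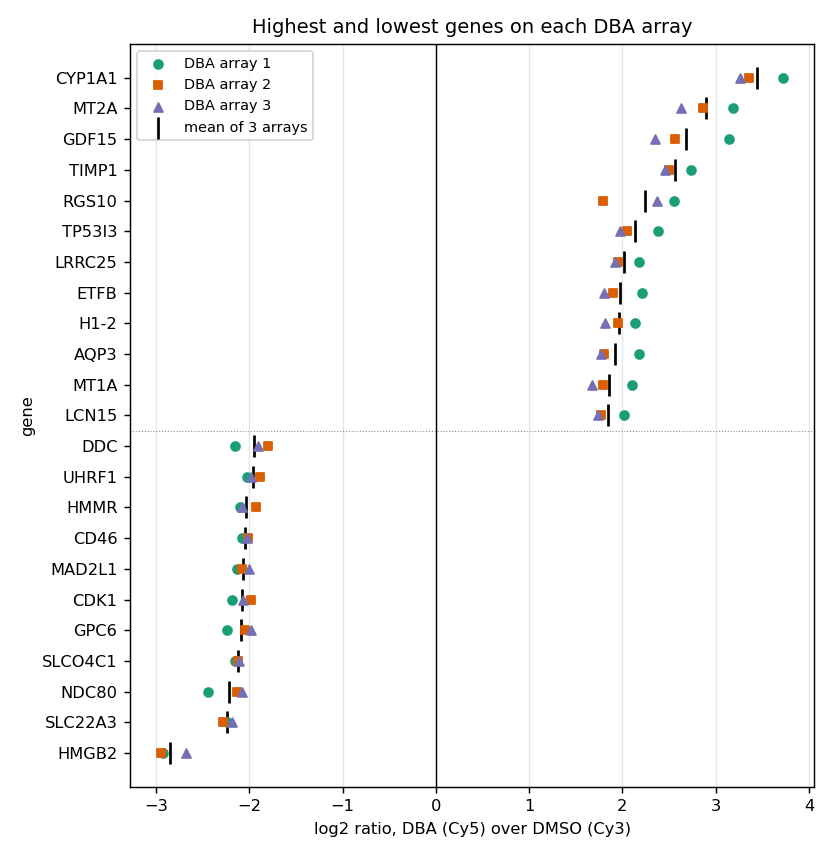
Log2 ratio of DBA over DMSO (horizontal axis) of the 12 genes with the highest and 11 of the 12 with the lowest mean ratio among genes that passed (vertical axis), with 1 symbol per array and a black tick at the mean of 3 arrays. CYP1A1 lies at 3.26 to 3.72 and HMGB2 at -2.94 to -2.68, and in the 12 risers array 1 lies highest.

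HMGB2, a chromatin protein that bends DNA, had the lowest ratio. Its signal was 337, 332 and 431 units with DBA and 2229, 2228 and 2045 with DMSO, and its log2 ratios were -2.92, -2.94 and -2.68. A gap between its channels follows from its place as the lowest ratio, and the adjusted p by limma was 3.13e-13. The organic cation transporter SLC22A3 (-2.24 ± 0.04), the kinetochore gene NDC80 (-2.22 ± 0.20) and the organic anion transporter SLCO4C1 (-2.13 ± 0.02) were also among the lowest. GPC6, a glypican of the cell surface, lay at -2.09 ± 0.13, with 12, 13 and 16 units with DBA. The mitotic kinase CDK1 (-2.08 ± 0.10), the spindle checkpoint gene MAD2L1 (-2.07 ± 0.07), the complement regulator CD46 (-2.04 ± 0.04) and the spindle gene HMMR (-2.04 ± 0.09) fell about alike. UHRF1, which helps to keep DNA methylation, lay at -1.96 ± 0.07 and DDC, which makes dopamine and serotonin, at -1.95 ± 0.18. Other probes of some of these genes did not pass. SLC22A3 had a second probe at -0.34, GPC6 at -0.14 and UHRF1 at -0.05, SLCO4C1 had one not well above background at -0.03, and CD46 had a pair at -0.12 and -0.01. For those 5 genes the fall rests on the brightest probe, which may read 1 of several transcripts, and this was not tested.

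**Figure D3:**
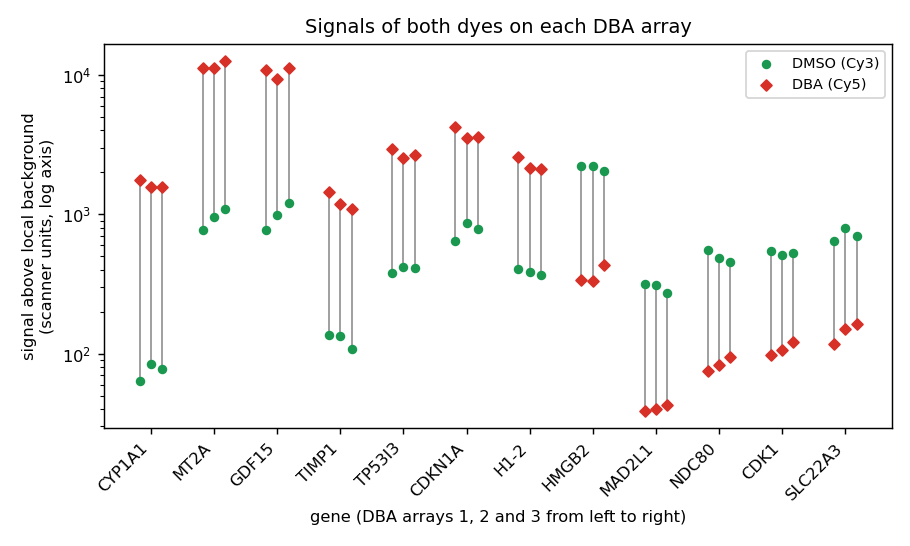
Signal above local background in scanner units (vertical log axis) of 12 named genes on DBA arrays 1, 2 and 3, with green circles for DMSO (Cy3) and red diamonds for DBA (Cy5), joined per array. The genes shown have large ratios, so a gap between the channels wider than the spread between arrays follows from the choice. CYP1A1, for example, lay at 1571 to 1758 against 64 to 84 units.

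Of 16 tested AHR targets, 8 rose with DBA and 1 fell, with a median log2 ratio of 0.64 against 0.0056 over all tested genes. After CYP1A1 came ALDH3A1, an aldehyde dehydrogenase (1.39, 1.15 and 1.07), the efflux pump ABCG2 (1.21, 1.08 and 1.07) and the Notch target HES1 (1.05, 0.98 and 0.89). All 3 lay well above 0 on every array. AHRR, the repressor that AHR induces, rose by 0.89, the amino acid transporter SLC7A5 by 0.82 and the quinone reductase NQO1 by 0.63. A second probe of AHRR lay at 0.56 and one of SLC7A5 at 0.09, and neither passed. CYP1A2 passed at an adjusted p of 0.0387 by limma, with an estimate of 1.59-fold. Its DMSO signal (12, 21 and 6 units) was not well above background on any array, so the size of this rise is uncertain. With the mean of its probes CYP1A2 lay at 0.24 and did not pass. Its second probe lay at -0.18, the other way, and without array 1, 2 or 3 it did not pass (adjusted p 0.164, 0.0831 and 0.130). CYP1B1 (0.18), TIPARP (0.26) and UGT1A6 (0.65) did not pass. The member that fell was NFE2L2, which codes for NRF2, at -1.09, -1.24 and -1.22, with a second probe not well above background at -0.07. Among AHR and 10 partners, AHR itself fell by 0.66 ± 0.03 and the co-chaperone PTGES3 by 0.65 ± 0.07. With median centring neither passed (-0.44 and -0.11), and 3 members were higher and 0 lower. ARNT lay at -0.03. Of 22 enzymes and regulators of the CYP2, CYP3A and CYP4 families 1 rose and 1 fell under loess, near the shares of all genes (3 and 1 with median centring). Under loess these were CYP2J2 at 0.59 (0.57 without array 1, which did not pass) and CYP4F3 at -0.99.

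Metallothioneins bind zinc, copper and cadmium and are switched on by metals and stress. Of 10 tested genes of this list 7 rose with DBA and 1 fell, with a median of 1.59 (8 and 0 with median centring). MT2A had signals of 11141, 11265 and 12505 units with DBA and 769, 953 and 1089 with DMSO, and a second probe rose by 2.84. MT1A rose by 2.11, 1.79 and 1.67, MT1X by 1.83, 1.56 and 1.51, and MT1B by 1.81, 1.62 and 1.44. MT1H rose by 1.61 ± 0.19. In each of them array 1 was highest and no array was near 0. MT1G rose by 1.57 and MT1E by 0.75, the latter with a second probe at 0.02 and a value of 0.46 with the authors' deposited log ratios, which did not pass. MT1F fell by 0.74 on average, with -1.20, -0.82 and -0.20 on the 3 arrays, and did not pass with median centring (-0.20), without array 1 (-0.51) or without array 2 (-0.70). MT1M (-0.12) and the zinc exporter SLC30A1 (0.40) did not pass. Metallothionein genes are near-identical, so their probes may read several of them, and the values of single members are uncertain.

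Of 30 tested p53 targets 20 rose and 1 fell, with a median of 0.72. The CDK inhibitor CDKN1A had log2 ratios of 2.14, 1.47 and 1.44, highest on array 1, with 4203, 3519 and 3564 units with DBA and 643, 859 and 785 with DMSO. The damage recognition gene DDB2 (1.67, 1.49 and 1.53), the mitochondrial reductase FDXR (1.63, 1.46 and 1.41) and PHLDA3, an inhibitor of AKT (1.54, 1.39 and 1.30), rose on each array by similar amounts. The kinase PLK3 (1.25), the metabolic regulator TIGAR (1.18), the death receptor FAS (1.17), RPS27L (1.06), the nuclease AEN (1.05) and GADD45A (0.95) also rose. MDM2, which degrades p53, rose by 0.65, BAX by 0.66 and BBC3 by 0.63, and each had a second probe that did not pass, at 0.12, 0.16 and -0.0033. Without array 1 BAX lay at 0.55 and did not pass. CCNG1, a cyclin that p53 induces, was the member that fell, at -0.97, -0.94 and -1.01. SESN1 (0.49), XPC (0.45), RRM2B (0.33) and TNFRSF10B (0.02) did not pass. With median centring 24 rose and 1 fell. Of 24 death receptors and BCL2 family genes 6 rose and 0 fell (10 and 0 with median centring), with BIK (0.90), BIRC3 (0.76) and BMF (0.73) beside the p53 targets FAS, BAX and BBC3. PMAIP1 lay at 0.13 and MCL1 at 0.11, and neither passed.

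The list with the largest share of members that moved one way was that of G2, kinetochore and mitosis genes, whose products build the spindle and drive division. Of 30 tested, 26 fell with DBA and 0 rose, with a median of -1.37, and at an unadjusted p under 0.05 by limma 29 were lower and 0 higher. NDC80 had log2 ratios of -2.44, -2.13 and -2.08, CDK1 -2.19, -1.98 and -2.07, and MAD2L1 -2.13, -2.08 and -2.0. Their signals with DBA were 75 to 95, 98 to 121 and 39 to 43 units, and with DMSO 452 to 556, 511 to 548 and 273 to 314. A second probe of NDC80 fell by 0.95. HMMR and the mitotic kinase PBK (-1.92), the survivin gene BIRC5 (-1.89), the centromere genes CENPF (-1.82) and CENPA (-1.76) and the topoisomerase TOP2A (-1.74) were next. With the mean of its probes CENPF lay at -1.17. The kinase PLK1 lay at -1.53, cyclin A2 (CCNA2) at -1.34 and cyclin B1 (CCNB1) at -1.08. AURKB (-0.31), SPC24 (-0.26), NEK2 (-0.54) and CDC25B (-0.05) did not pass. With median centring 23 fell and 0 rose. Of 13 mitotic kinesins, the motors of the spindle, 6 fell and 0 rose, led by KIF11 at -1.30, -0.87 and -1.13.

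Of 32 DNA replication and nucleotide supply genes 14 fell and 1 rose with DBA, with a median of -0.45, and 10 fell with median centring. The ribonucleotide reductase subunits RRM2 (-1.50, -1.29 and -1.25) and RRM1 (-1.32, -1.15 and -1.24) lay lowest, although a second probe of RRM2 at -0.53 did not pass. The clamp loader RFC4 (-1.08) and the helicase subunit MCM6 (-0.99) also fell, while MCM2 (-0.27), MCM4 (-0.35), MCM5 (-0.36) and MCM7 (-0.31) did not pass. PCNA, the sliding clamp and itself a p53 target, rose by 0.84, 0.67 and 0.79. Of 28 repair and checkpoint genes 7 fell and 0 rose (6 and 3 with median centring), among them the mismatch repair gene MSH6 (-1.03), FANCD2 (-0.92), BRCA1 (-0.89) and the checkpoint kinase CHEK1 (-0.88). Other probes of FANCD2 lay at 0.08 and -0.02, and the mean of its probes (-0.29) did not pass. Of 17 E2F family and pocket protein genes E2F5 (-1.11) and E2F4 (-0.72) fell and 0 rose, and FOXM1 (-0.48) and E2F1 (-0.40) did not pass. E2F4 passed neither with median centring (-0.43), where 1 gene of the list was higher and 1 lower, nor with the mean of its probes (-0.36). Among 16 CDK inhibitors and G1 cyclins, CDKN1A and cyclin D1 (CCND1, 0.59, or 0.55 without array 1, 0.58 without array 3 and 0.32 with the mean of its probes, none of which passed) rose and CDKN1B (-1.72), CDK6 (-0.90) and CDKN3 (-0.71) fell. With median centring CDK6 (-0.45) and CDKN3 (-0.53) did not pass and 3 of the list were higher and 1 lower. A second CDK6 probe lay at -0.03. The CDKN1B value rests on 1 probe with log2 ratios of -1.71, -1.74 and -1.72, as a second one, not well above background, lay at 0.07. MYC fell by 1.29 ± 0.06.

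Of 18 clustered histone genes, 10 rose with DBA and 0 fell, with a median of 0.82 (13 and 0 with median centring). H1-2 had log2 ratios of 2.14, 1.95 and 1.82, H1-4 1.57, 1.41 and 1.48, and H2BC5 1.56, 1.46 and 1.41. H3C2 (-0.22) and H4C3 (-0.45) lay below 0 without passing. These genes have near-identical copies, so a probe may read several of them. Of 20 HMG proteins, histone variants and DNA methylation genes 10 fell and 0 rose (6 and 1 with median centring), with HMGB2, UHRF1, HMGA2 (-1.89), HMGB1 (-1.26) and the condensin subunit SMC4 (-1.18) lowest. The variant histone genes H2AZ1 (-0.82) and H2AX (-0.69) were among those that fell, and neither passed with median centring (-0.21 and -0.31). All 3 other probes of HMGB1 fell, by 1.65, 1.0 and 0.80, whereas a second probe of HMGA2 lay at -0.04. The mean of its probes put SMC4 at -0.62. DNMT1 lay at 0.03 and HMGA1 at 0.40.

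**Figure D4:**
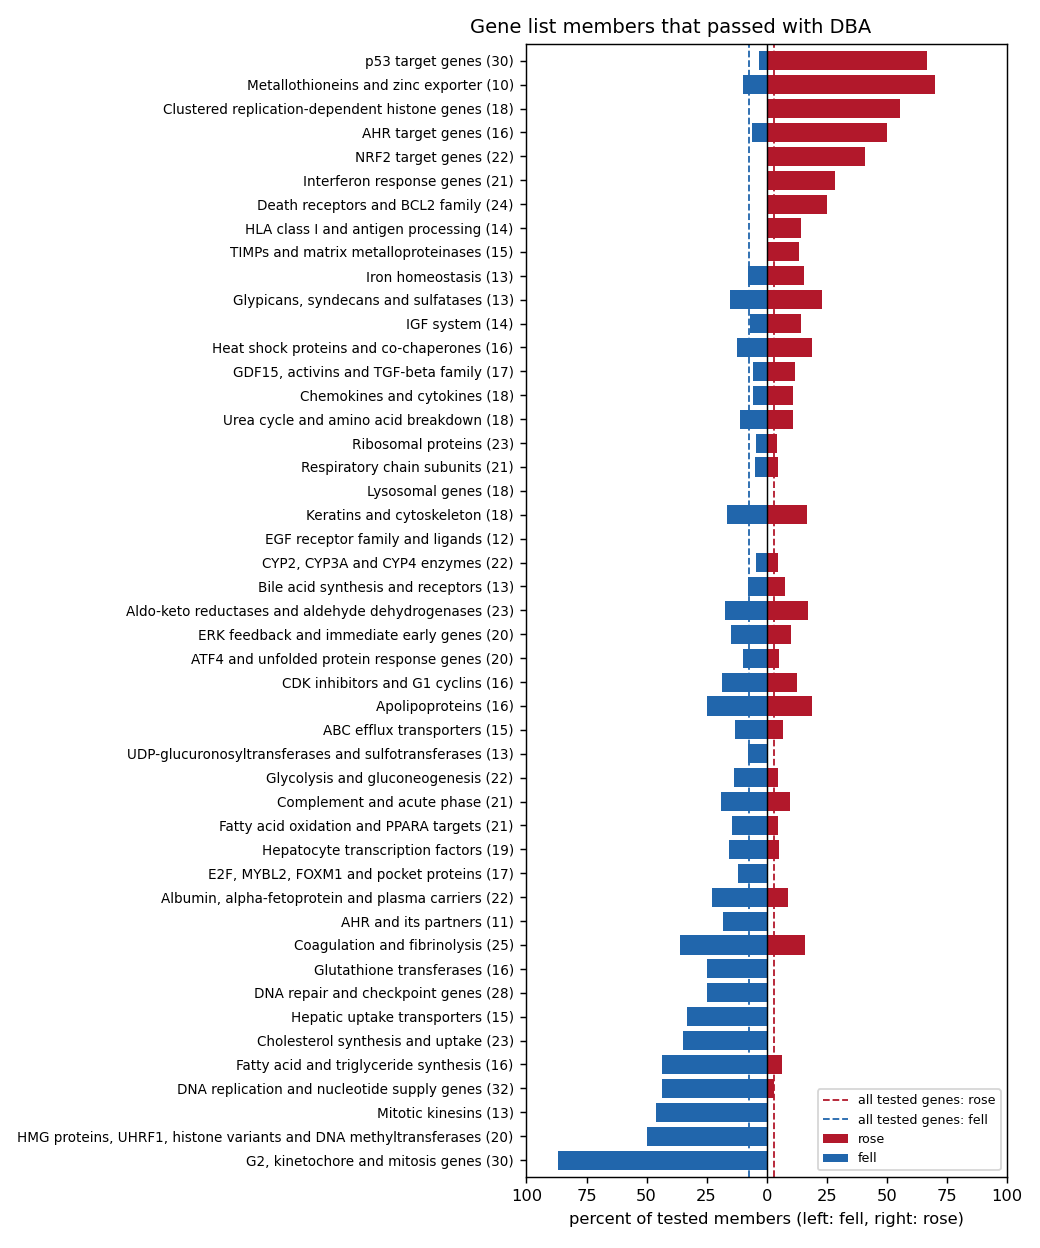
Percent of the tested members of each gene list (number tested in parentheses) that rose with DBA (red, to the right) or fell (blue, to the left), with dashed lines at the shares of all tested genes, 3.08% and 7.25%. The p53, metallothionein and histone lists lie farthest to the right and the G2 and mitosis list, with 26 of 30 members lower, farthest to the left.

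NRF2 targets defend against oxidants. Of 22 tested, 9 rose with DBA and 0 fell, with a median of 0.44 (14 and 0 with median centring). The aldo-keto reductase AKR1B10 had log2 ratios of 1.80, 1.53 and 1.60, and a second probe rose by 1.75. The ferritin chain FTH1 rose by 1.09, the sulfiredoxin SRXN1 by 1.05 and the thioredoxin reductase TXNRD1 by 0.78. HMOX1 (0.14), GCLC (0.05) and SLC7A11 (-0.58) did not pass. Of 16 glutathione transferases the 4 alpha class members fell and 0 rose, whereas 4 were higher and 4 lower with median centring. GSTA1 had -2.08, -1.79 and -1.71, GSTA3 -1.75, -1.69 and -1.64, GSTA2 -1.65, -1.34 and -1.36 and GSTA4 -1.11, -1.01 and -0.97. GSTA1, GSTA2 and GSTA3 are so alike that their probes may share targets. The other 12 members lay between -0.22 and 0.48 under loess and did not pass there. Of 16 heat shock genes HSPB1 (1.32), HSPE1 (0.77) and HSPA1A (0.76) rose, and HSPA9 (-1.0) and HSPD1 (-0.82) fell. With median centring neither of the fallers passed (-0.51 and -0.08), and 7 of the list were higher and 0 lower. Of 20 ATF4 and unfolded protein genes 1 rose and 2 fell under loess, near the shares of all genes, against 3 and 0 with median centring. Of 13 iron genes 2 rose, FTH1 and FTL, and 1 fell (4 and 0 with median centring). FTL lay at 0.61, and did not pass without array 1 (0.54), with the mean of its probes (0.35) or with the authors' deposited log ratios (0.49). On the other side the transferrin receptor TFRC fell by 0.87 (-0.38 with median centring, which did not pass).

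Of 23 genes of cholesterol synthesis and uptake 8 fell and 0 rose with DBA, with a median of -0.34 that turned to 0.06 with median centring, where 4 fell and 0 rose. The synthesis enzymes LSS (-1.62) and HMGCS1 (-1.38) were among those that fell, but other probes lay at -0.26, -0.81 and -0.18 for LSS and -0.06 for HMGCS1. Of 16 genes of fatty acid and triglyceride synthesis 7 fell and 1 rose, or 3 and 1 with median centring and 2 and 1 with the mean of a gene's probes. GPAM (-1.23), SCD (-1.0) and FADS2 (-0.99) fell by their brightest probe, and all other probes of these 3 genes lay between -0.10 and 0.05. With median centring SCD did not pass (-0.38). ACLY rose by 0.68 and FASN lay at -0.02. The cholesterol pump ABCA1 fell by 1.42, with 2 other probes at 0.04 and 0.07. Of 21 fatty acid oxidation genes 1 rose and 3 fell, with a median of 0.04 (3 and 2 with median centring), against 3.08% and 7.25% of all tested genes. ACAA2 (-1.35), ACADM (-0.93) and the fatty acid binding protein FABP1 (-0.87, or -0.15 with median centring, which did not pass) fell, and ACADVL rose (0.61, or 0.49 without array 1, which did not pass). Of 22 genes of glycolysis and glucose transport 1 rose and 3 fell (4 and 2 with median centring), against 3.08% and 7.25% of all tested genes. ALDOA rose by 1.51, while HK2 (-1.39) and the transporters SLC2A2 (-1.16) and SLC2A1 (-0.81, or -0.15 with median centring, which did not pass) fell. With the mean of a gene's probes ALDOA lay at 1.05, HK2 at -0.74 and SLC2A2 at -0.74.

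Genes for proteins that hepatocytes secrete moved in both directions, and their balance turned with the normalisation. Of 25 coagulation and fibrinolysis genes 4 rose and 9 fell with DBA, against 5 and 3 with median centring, where the median moved from -0.15 to 0.05. The protein C receptor PROCR rose by 1.26, 0.85 and 1.18 and the plasminogen activator PLAU by 0.95. Protein S (PROS1) lay at -1.78, -1.70 and -1.69, with other probes at -0.45 and -0.12, and KNG1 at -1.17, -1.07 and -0.96. The fibrinogen chains FGG, FGA and FGB fell by 0.93, 0.94 and 0.98, and with median centring FGG (-0.17) and FGA (-0.30) did not pass while FGB (-0.77) did. FGG had 5654, 5512 and 5944 units with DBA and 6874, 6059 and 5977 with DMSO. Of 22 albumin, alpha-fetoprotein and carrier genes 2 rose and 5 fell, against 8 and 2 with median centring. Haptoglobin (HP) had log2 ratios of -1.42, -1.50 and -1.43 and alpha-fetoprotein (AFP) -1.36, -1.34 and -1.22, and both passed with median centring at -0.81 and -0.72. HP has a near-identical neighbour, HPR (-1.88), whose RNA its probe may also read. AMBP rose by 1.26 and albumin (ALB) lay at 0.02. Of 16 apolipoprotein genes 3 rose and 4 fell, or 5 and 0 with median centring. In complement C4BPA (-1.78) and CFI (-1.22) fell and SAA4 (1.12) rose. Of 19 hepatocyte transcription factors CEBPB rose by 0.77, and NR2F2 (-1.07), NR1H4 (-0.84) and CEBPA (-0.74, or -0.28 with median centring, which did not pass) fell, while HNF4A lay at -0.03. With median centring 1 of this list was higher and 2 lower. With the mean of a gene's probes 0 were higher and 1 lower, as CEBPB (0.51), NR2F2 (-0.49) and CEBPA (-0.46) did not pass, and CEBPB (0.56) did not pass with the authors' deposited log ratios either. Of 15 uptake transporters 5 fell and 0 rose (3 and 0 with median centring), with the citrate transporter SLC13A5 (-0.94) after SLC22A3 and SLCO4C1.

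Among genes of growth factor signalling, IGFBP1 rose by 1.74, 1.46 and 1.47 and IGFBP3 by 1.02, 0.89 and 0.84, the latter with a second probe at 0.11. The early response gene IER3 rose by 1.43. TIMP2 rose by 1.36, or 0.69 with the mean of its probes, and 0 of 15 genes of TIMPs and matrix metalloproteinases fell. Of 21 interferon response genes 6 rose and 0 fell (9 and 0 with median centring), with ISG15 at 1.40, 1.31 and 1.20 and IFI27 at 0.74, while IFIT1 (-0.31) and MX1 (-0.01) did not pass. Of 14 HLA class I and antigen processing genes the peptide transporters TAP2 (0.85) and TAP1 (0.67) rose and 0 fell (8 and 0 with median centring). A second TAP2 probe, not well above background, lay at 0.05, and the mean of both (0.45) did not pass. The sulfatase SULF2 rose by 1.60, glypican GPC1 by 1.16 and syndecan SDC1 by 1.03, with a second SDC1 probe at 0.01, and GPC3 fell by 1.0 (-0.36 with median centring, which did not pass). The keratins KRT18 (1.10) and KRT8 (1.01) and lamin LMNA (0.94) rose, and lamins LMNB1 (-0.94) and LMNB2 (-0.83, or -0.50 with median centring, which did not pass) fell. Of 12 tested genes of the EGF receptor family and its ligands 0 passed by limma, with 1 higher and 3 lower at an unadjusted p under 0.05. Of 18 lysosomal genes 0 passed, with 12 higher and 2 lower at that level and 7 higher with median centring.

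3MC and NP were compared with DBA because their scans were the dimmest after those of DBA. They were still brighter. Median spot signals, with background not subtracted, were 148 to 163 units in Cy5 and 203 to 231 in Cy3 for 3MC. For NP they were 124 to 141 and 245 to 299. 3MC is a hydrocarbon of several fused rings with a methyl group, and naphthalene has the fewest rings of all in the series. DBA and 3MC differed in 389 of 17302 genes (2.25%), of which 232 were higher with DBA (1.34%) and 157 lower (0.907%). DBA and NP differed in 1963 genes (11.3%), 1179 higher (6.81%) and 784 lower (4.53%). With median centring 632 genes were higher and 47 lower than with 3MC, and 3729 and 181 than with NP. Counts of lists between compounds are given under loess only, and were not made with median centring. CYP1A1 did not pass between DBA and 3MC (2.90), with a difference of 0.55 and an interval of -1.22 to 2.32. That interval carries the spread over all 24 arrays of the fit. The DBA arrays lay at 3.26 to 3.72 and the 3MC arrays at 2.88 to 2.91, a spread within compounds that could be technical. How many other genes show such a gap was not counted. CYP1A1 was 2.97 higher with DBA than with NP (0.47), with an adjusted p of 0.0076 by limma. Of 30 p53 targets 0 differed between DBA and 3MC by limma (5 higher and 6 lower at an unadjusted p under 0.05), and 18 were higher with DBA than with NP. TP53I3 lay at 2.14 with DBA, 1.98 with 3MC and -0.02 with NP, and CDKN1A at 1.68, 1.06 and 0.31. Of 30 G2 and mitosis genes 0 differed from 3MC (6 higher and 2 lower at an unadjusted p under 0.05) and 19 were lower than with NP, with CDK1 at -2.08, -2.02 and -1.33. Under loess, metallothioneins were the list in which DBA and 3MC differed most often: 7 of 10 were higher with DBA and 1 was lower. From NP 0 differed by limma, although 7 were higher at an unadjusted p under 0.05. MT2A lay at 2.89 with DBA, 1.67 with 3MC and 2.38 with NP, and its difference from 3MC was 1.23 (adjusted p 0.000431). Of 22 NRF2 targets 6 were higher with DBA than with 3MC and 0 lower, and 4 were higher and 5 lower than with NP.

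AKR1B10 differed most from 3MC: it rose with DBA by 1.64 ± 0.14 and lay at -0.47 with 3MC and 0.08 with NP. ETFB lay at 1.97, 0.35 and 0.13, and the interleukin 1 decoy receptor IL1R2 at 1.61, 0.26 and -0.59. For both the 3 DBA arrays lay above all 3MC and NP arrays, and the separation from 3MC follows from how these genes were chosen. On the side lower with DBA, PAQR9 lay at -1.21 against 0.14 with 3MC, and the fatty acid hydroxylase CYP4F3 at -0.99 against 0.14. FGG lay at -0.93 against 0.21. From NP, SULF2 differed most, at 1.60 with DBA against -1.42. IGFBP7, which binds insulin-like growth factors, lay at 1.10 against -1.23 and the ubiquitin-like UBD at 0.76 against -1.54. On the other side HMGA1 lay at 0.40 with DBA against 2.28 with NP and the calcium channel ITPR3 at 0.48 against 2.24. Whether the DMSO RNA was the same for these compounds is not stated.

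**Figure D5:**
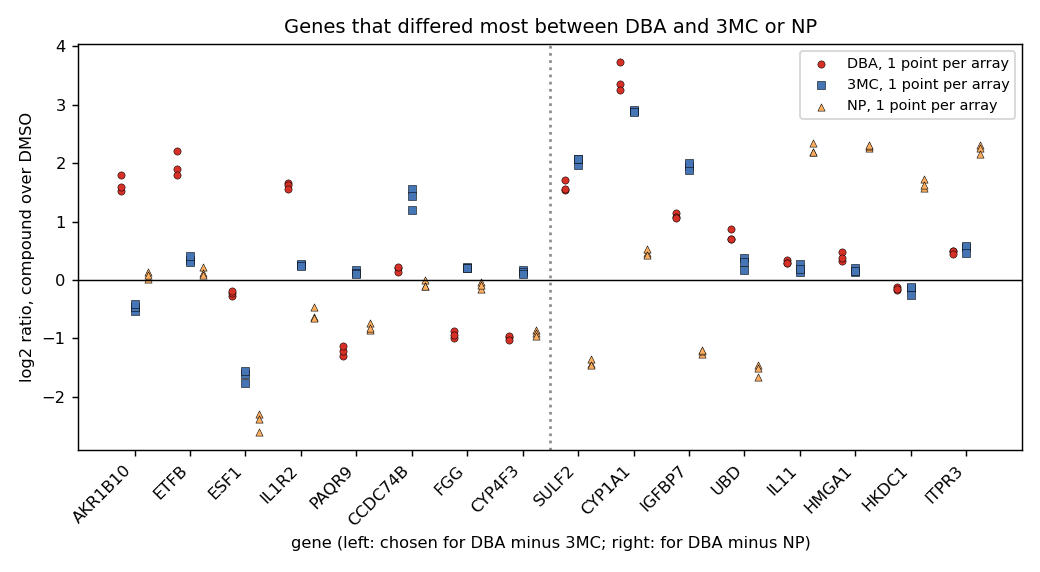
Log2 ratio of compound over DMSO (vertical axis) on each of the 3 arrays with DBA (red circles), 3MC (blue squares) and NP (orange triangles) for the 8 genes chosen for the difference between DBA and 3MC (left of the dotted line) and the 8 for DBA and NP (right). AKR1B10, ETFB and IL1R2 lie higher with DBA than with both other compounds. The genes on the right were chosen for their distance from NP, so DBA lying nearer to 3MC there follows largely from that choice.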

How the data were processed

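Per the file headers, the deposited scans hold intensity values for spots and for the background around them, in either dye and not normalised, with the percent of pixels that were saturated. A further table deposited by the authors holds log2 ratios, normalised in a way that the labels do not state. These were used as an alternative, since the DBA columns could be tied to their arrays (correlations of 0.93 to 0.95). Scanner software is not given in the sources used here. With R 4.3.3 and limma 3.58.1, background was corrected by normexp (offset 50) and ratios normalised by loess within arrays. Spots flagged -75 or lower were left out, while spots marked not found were kept. Probes entered the test when either dye exceeded the local background by more than 2 of its SDs on at least 2 arrays of any compound. The brightest named probe stood for a gene. RefSeq tables named 26382 of 41000 probes. One mean per compound was fitted to 24 arrays of 8 compounds with lmFit and eBayes. Figures were drawn with matplotlib 3.10.9. The fit was tested on simulated ratios. Named genes were the 12 highest and 12 lowest that passed, stood well above background and kept 1 sign, up to 5 members of each list given in full and other members by value, the 4 highest and 4 lowest differences from 3MC and NP, and second probes that differ in sign or did not pass. Some genes that this rule names are not reported here. The number of arrays limits the precision. The members, gene lists and tests were chosen with earlier results of these data known. Alternatives changed background, normalisation, filters, probes, weights, thresholds and arrays.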

Additional observations from a re-analysis of the deposited data

Results flagged for a closer look

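By limma contrasts of the fit across all genes, 16 named genes differed between DBA and another compound, 8 from 3MC and 8 from NP. Those higher with DBA than with 3MC were AKR1B10 (difference in log2 ratio 2.11, adjusted p 4.46e-06), ETFB (1.62), ESF1 (1.41) and IL1R2 (1.35). Each was higher on 3 of 3 DBA arrays, which the choice by size of difference makes likely. ESF1, a nucleolar gene, lay at -0.23 with DBA and -1.64 with 3MC, and a second ESF1 probe lay at 0.51 with DBA. Those lower were PAQR9 (-1.35), CCDC74B (-1.21), FGG (-1.15) and CYP4F3 (-1.13). CCDC74B had 14 to 17 units with DBA and 7 to 9 with DMSO.

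Against NP, SULF2 (3.02, adjusted p 1.29e-12), CYP1A1 (2.97), IGFBP7 (2.32) and UBD (2.30) were higher with DBA. IL11 (-1.94), HMGA1 (-1.88), HKDC1 (-1.79) and ITPR3 (-1.76) were lower. IL11, a cytokine, lay at 0.31 with DBA and 2.25 with NP, and the hexokinase-like gene HKDC1 at -0.15 and 1.65. Neither passed against DMSO with DBA in the main fit, though IL11 did with plain background subtraction (1.11). HMGA1 (0.40 in the main fit) passed with median centring (0.69). ITPR3 (0.48 in the main fit) passed with median centring (0.61), plain subtraction (0.73), an offset of 16 (0.60) and the authors' values (0.71).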

How the results depend on the processing

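Against the 533 genes higher and 1254 lower with DBA, plain background subtraction gave 1347 and 2100, median centring 1612 and 646, no minimum fold 3029 and 3974, and a minimum of 2-fold 133 and 327. The authors' deposited log ratios gave 913 higher and, near the main count, 1352 lower. Without spots marked not found 10446 genes were tested, with 587 higher and 1058 lower. For DBA minus 3MC (232 higher, 157 lower) the counts were 472 and 432 with subtraction, 632 and 47 with median centring, 1198 and 1680 with no minimum fold and 34 and 11 at 2-fold. Higher genes were 147 without spots marked not found, 146 with the mean of a gene's probes and 152 with both channels above background. Lower genes were 240 at an offset of 16 and 264 with the authors' values, where 3MC array 3 and NP array 1 were left out because their columns could not be tied to their scans. For DBA minus NP (1179 higher, 784 lower) the counts were 3729 and 181 with median centring, 3372 and 3524 with no minimum fold, 384 and 127 at 2-fold, and 1436 lower with subtraction. The cause of these shifts was not tested. Without 1 DBA array in turn, 489 to 571 were higher and 1194 to 1302 lower.

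Of the 1787 genes called, median centring kept 66% and the mean of a gene's probes 67.5%, with 0 of opposite sign among those called in both. Values turned in sign for PSAT1 (0.0910), AHSG (0.0010) and HKDC1 (0.0338) with median centring, for ESF1 (0.14) with the mean of its probes and for CYP1A2 (-0.18) with both channels above background. Of 275 named genes called, 60 lost their call with median centring and 2 more, PSAT1 and AHSG, turned in sign without passing. The call was lost by 39 with the mean of probes and 18 of 264 with the authors' values. Array numbers did not pair the arrays (mean correlation of same-numbered residuals 0.0029, lowest -0.23 and highest 0.16), and the fit with a replicate block gave 1253 lower and moved the count of higher genes by 1. Leaving BA array 1 out of the fit, which was decided after seeing the data, gave 535 higher and 1256 lower. Quantile scaling of brightness leaves ratios as they are by construction. Spots of low signal limit the dim genes: in the dimmest 5th of genes well above background 0.399% were higher and 0.617% lower.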

Other observations

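Genes outside the lists, chosen here after their values were seen, included several risers close behind the 12 highest. CD109, a surface protein that binds TGF-beta, lay at 1.83, the matrix protein CCN1 at 1.70, the phospholipid transfer protein PLTP at 1.68 and the CDK4 binding protein SERTAD1 at 1.61. S100A6 (1.42), RHOC (1.42) and the actin capping protein CAPG (1.39) also rose. SH3BGRL3 had log2 ratios that differed between arrays, with 1.24 on array 1, 1.02 on array 2 and 2.45 on array 3. Among fallers, the cell division genes RACGAP1 (-1.84), ZWINT (-1.79), FBXO5 (-1.77) and CEP55 (-1.69), the PCNA partner PCLAF (-1.83) and the deubiquitinase USP1 (-1.70) lay beside the G2 and mitosis list. The cold-induced RNA binding protein RBM3 lay at -1.69, the GABA transaminase ABAT at -1.71 and the kinase RPS6KA3 at -1.90.

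Counts of some lists of bright genes moved with the normalisation. Of 23 ribosomal protein genes 1 rose and 1 fell under loess, and 20 and 0 passed with median centring. Of 21 respiratory chain subunits the counts were 1 and 1, and 14 and 0. For albumin (ALB) the DBA signal was 9861, 8630 and 9879 units and the DMSO signal 5717, 5214 and 4785, while its loess-normalised log2 ratio was 0.02.

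Probes of 1 gene did not always move together. The 733 called genes with other probes well above background had 1044 such probes, of which 817 had the sign of the probe used and 249 were called the same way. On the brightest CD46 probe the log2 ratio was -2.04 with DBA, -3.38 with 3MC and -3.89 with NP.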
